A study of Homo sapiens with 8 samples.

Results

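The 8 genes described here, TAGLN, TAGLN2, ACTA2, ACTG2, CNN1, TPM1, TPM2 and CALD1, code for proteins of the actin-based contractile apparatus, and SMAD3 occupancy at each of them was read from promoter microarrays. A probe was taken as a member when the array annotation named the gene, or gave a distance from the probe to the gene's annotated start. This gave 301 probes of 474411 on the arrays, of which 300 had a value in every replicate, for 8 of the 17132 genes with any such probe. A549 cells, an established line from a human lung adenocarcinoma with features of alveolar type II epithelium, were serum-starved and then either left unstimulated or given TGFβ1 (2 ng/ml). The labels give the length of this treatment as no more than 2 h, while the study's text also names a shorter time and another number of array replicates, so the exact time is not settled and the labels were followed. In both conditions the cross-linked chromatin was immunoprecipitated with an anti-SMAD3 antibody (SMAD3 IP, Cy5) and, separately, with a control anti-flag antibody (mock IP, Cy3), and the 2 products were hybridized together, with 2 biological replicates per condition, each on a set of 2 slides. No group carries a genetic change, and all come from a single cell line. The arrays measured DNA, so the identity of the cells could not be checked against expressed markers.

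SMAD3 is a receptor-regulated SMAD. TGFβ receptors phosphorylate it, it assembles with SMAD4 and moves to the nucleus, and there it contacts short SMAD-binding elements next to partner factors. Contractile genes are classically controlled by serum response factor and its myocardin-related coactivators through CArG boxes, and in many cell types TGFβ raises their expression as part of the myofibroblast or epithelial-mesenchymal program. TAGLN (SM22α) and its homologue TAGLN2 are calponin-family proteins that bind actin filaments, ACTA2 and ACTG2 are the smooth muscle α- and γ-actins, CNN1 is basic calponin, TPM1 and TPM2 are tropomyosins that lie along the actin filament, and CALD1 is caldesmon, an inhibitor of actomyosin.

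Of the 8 genes, 7 had an entry in the RefSeq promoter table (build GRCh38.p14), and TAGLN had none. TPM1, ACTG2 and CNN1 had a single start there. The 250 bases upstream of that start are printed below because these 3 genes held probes next to the start with opposite readings in the 2 conditions (TPM1, CNN1) or the longest run of probes with a lower ratio after stimulation (ACTG2). Capitals mark the SMAD box CAGAC, read on either strand (GTCTG on the other), and the CArG box. The sequences are those of chr15:63048239-63048488 (plus strand), chr2:73892758-73893007 (plus strand) and chr19:11538601-11538850 (plus strand).
TPM1: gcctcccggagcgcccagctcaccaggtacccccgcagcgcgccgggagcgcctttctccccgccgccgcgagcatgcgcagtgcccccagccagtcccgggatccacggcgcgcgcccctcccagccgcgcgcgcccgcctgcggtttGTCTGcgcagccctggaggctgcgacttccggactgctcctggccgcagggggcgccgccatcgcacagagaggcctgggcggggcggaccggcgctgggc
ACTG2: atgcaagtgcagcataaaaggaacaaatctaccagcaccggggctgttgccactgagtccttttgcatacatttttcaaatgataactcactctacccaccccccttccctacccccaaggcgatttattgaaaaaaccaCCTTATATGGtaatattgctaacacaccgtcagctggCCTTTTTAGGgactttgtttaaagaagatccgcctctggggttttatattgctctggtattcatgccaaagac
CNN1: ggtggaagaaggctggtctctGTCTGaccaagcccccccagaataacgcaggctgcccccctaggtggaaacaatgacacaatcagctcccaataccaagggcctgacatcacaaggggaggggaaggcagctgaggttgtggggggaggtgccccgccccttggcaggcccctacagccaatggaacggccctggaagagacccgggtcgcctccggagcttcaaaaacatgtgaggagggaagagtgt
The TPM1 window held 1 CAGAC, from -101 to -97 relative to the start. In the ACTG2 window there was no CAGAC but 2 CArG boxes, from -110 to -101 and from -73 to -64. CNN1 held 1 CAGAC, from -229 to -225. The palindromic element GTCTAGAC, which contains no CAGAC, was found in none of the member windows. For comparison, CAGAC occurred in 38.0% of the 35116 RefSeq promoter windows of the same length, GTCTAGAC in 0.182% and the CArG box in 1.16%. These are matches of letters, and the annotated starts of the arrays, whose genome build the files do not name, need not be the RefSeq ones.

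All values below are log2 ratios of SMAD3 IP over mock IP from the scanner's processed signals, with each array centred on its median, so that 0 is the ratio of the median probe. A probe was called well above background when the scanner software flagged its signal so. Of the 300 member probes, 110 passed in both channels in every replicate, against 160926 of 473007 probes on the arrays. The share was unequal: 21 of 38 for TAGLN, 11 of 21 for TAGLN2, 4 of 35 for ACTA2, 6 of 20 for ACTG2, 21 of 30 for CNN1, 28 of 70 for TPM1, 15 of 23 for TPM2 and 4 of 63 for CALD1. At 55 member probes, 25 of them at CALD1 and 17 at ACTA2, neither channel passed in any replicate, and these carry no measured ratio. Their processed values were kept in the probe counts and the promoter means. Over all probes the log2 ratio correlated at r = 0.90 between the unstimulated replicates and at r = 0.92 between the stimulated ones, but at 0.20 to 0.23 across conditions, a description over probes of the same arrays.

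**Figure D1:**
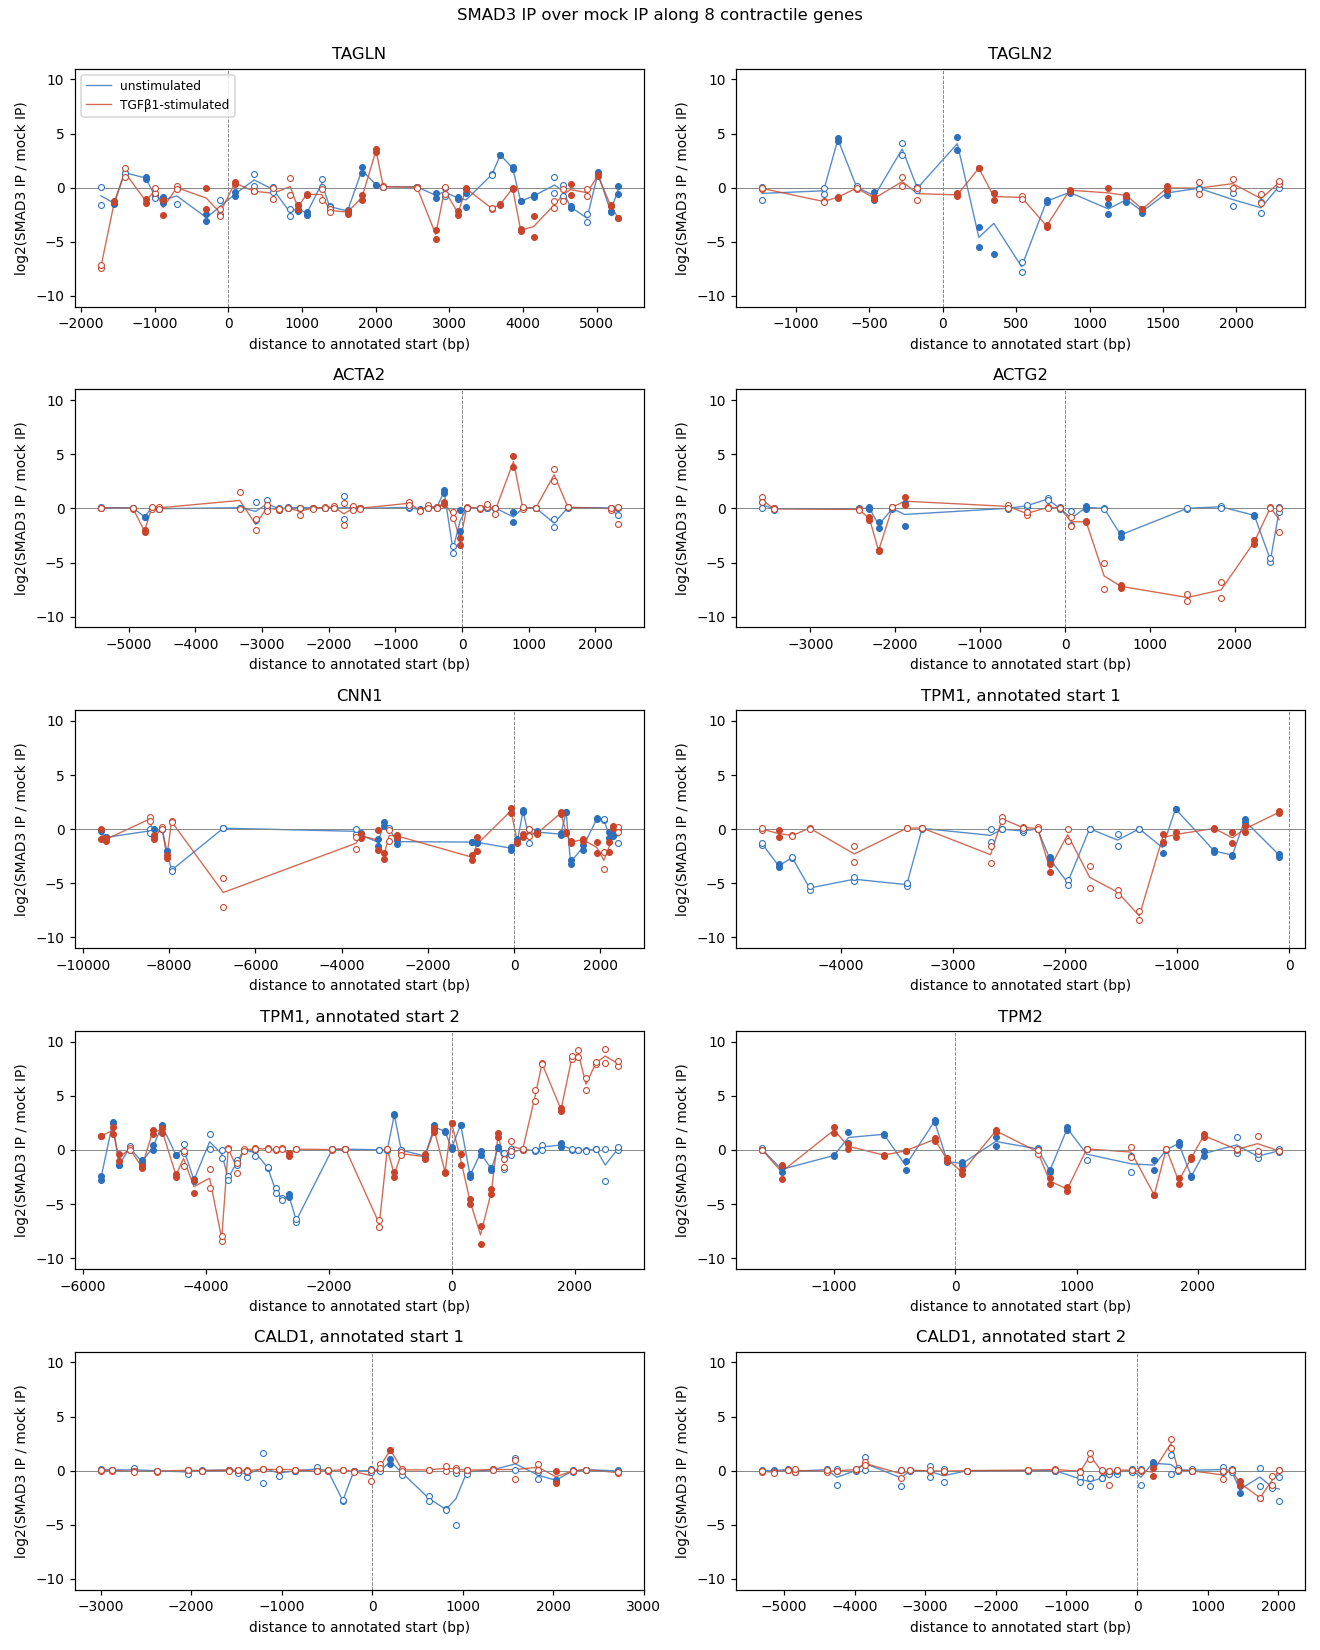
Log2 ratio of SMAD3 IP over mock IP (vertical axis) against the distance to the annotated start in bp (horizontal axis) for the 300 probes, with TPM1 and CALD1 split by their 2 annotated starts. Points are single replicates, filled for probes whose SMAD3 IP and mock IP signals passed the background flag in all replicates, lines join the condition means, and the run of 9 TPM1 probes from 1359 to 2706 bp reads from -2.83 to 0.64 in unstimulated cells and from 3.59 to 9.32 after TGFβ1.

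After TGFβ1 stimulation, 102 of the 300 member probes changed, 52 to a higher and 50 to a lower ratio (limma, Benjamini-Hochberg adjusted p under 0.05), a share of 34.0% beside 22.9% of all probes (10.5% higher, 12.4% lower). This count was lower without unstimulated replicate 1 or 2, as was the count over all probes. Among the 110 member probes well above background 58 changed (22 higher, 36 lower), or 52.7%, beside 44.4% of all such probes (19.0% higher, 25.5% lower). TPM1 carried 41 of the 102. Without it, 61 of 230 probes changed, or 26.5%, which is near the share of all probes. In unstimulated cells 96 member probes lay off 0 (26.4% of all probes did), 25 above and 71 below, beside 8.92% and 17.4% of all probes. After stimulation 103 did (26.7% of all probes), 33 above and 70 below, beside 8.22% and 18.5%. Both counts were lower without 1 replicate of their own condition, as were the counts over all probes. At 90 of the 110 probes well above background both replicates of one condition lay above both of the other, beside 79.0% of all such probes. With loess normalization within each array the split was 35 above and 51 below in unstimulated and 45 and 45 in stimulated cells, and over all probes 58554 and 59354, and 58438 and 57027, so the larger number below 0 depended on the scaling. Both conditions were called above 0 at 7 member probes (4.27% of all probes) and below 0 at 33 (8.29%), while 9 went from above to below (1.81%) and 5 from below to above (1.41%). Over the 110 probes well above background, the condition means correlated at r = 0.21, while the replicates correlated at 0.91 (unstimulated) and 0.95 (stimulated).

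**Figure D2:**
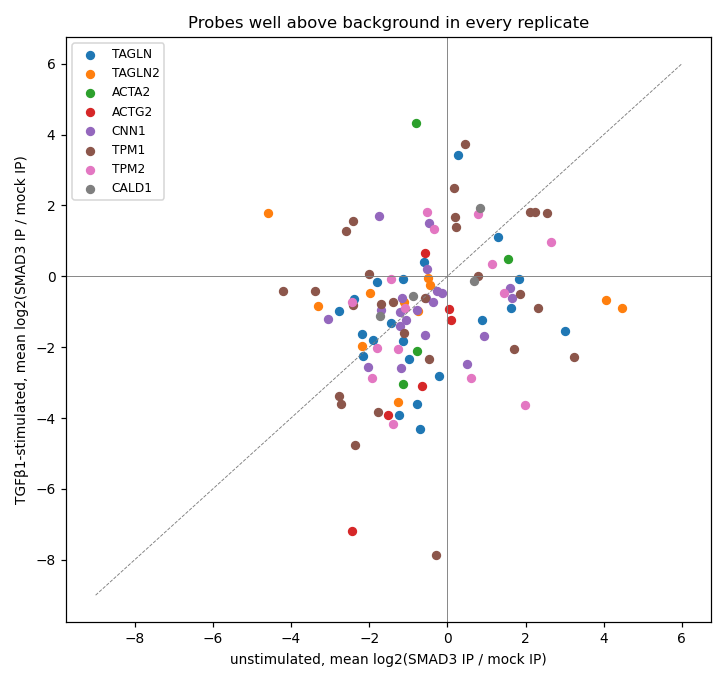
Mean log2 ratio after TGFβ1 (vertical axis) against the mean in unstimulated cells (horizontal axis) for the 110 member probes well above background in both channels in every replicate, coloured by gene, with the line of equal values dashed. The points scatter on both sides of the line, with r = 0.21.

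TPM1, which codes for α-tropomyosin and lies on chromosome 15, held the longest run of neighbouring member probes that changed one way. The runs described here were picked after the values were seen, so they are descriptions. Its probes belong to 2 annotated starts that lie 5798 bp apart. The 9 probes in a row, 1359 to 2706 bp inside the gene from the downstream start, had a higher ratio after TGFβ1 (limma adjusted p from 0.00203 to 0.0195). At 2060 bp the SMAD3 IP signal, as log2 relative to the array median, was -0.60 and -0.71 in the unstimulated replicates and 8.16 and 8.54 in the stimulated ones. The 2 stimulated replicates were thus far above both unstimulated ones, where the probe was not well above background, and the SMAD3 IP signal was at least 514-fold higher after stimulation. For this bound the dim level on each array was the higher of the probe's own signal and the lowest signal that passed the background flag there. The fold equals that of the processed signals as they stood, so it is not a guaranteed minimum. The mock IP signal of that probe was not well above background in any replicate (-1.15, -1.41, -0.96 and -1.47). The log2 ratio after stimulation, 8.55 and 9.19 with a mean of 8.87, thus rests on a mock IP signal that was not measured (limma adjusted p of the change 0.00226).

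The rest of the run read the same way. Of the 9 probes, 6 had no SMAD3 IP signal well above background in unstimulated cells, and their bounds ran from 71.1-fold at 2185 bp to 907-fold at 1956 bp. The probes at 1469 and 2706 bp had passed the background flag in 1 of the 2 unstimulated replicates, and their SMAD3 IP signal averaged 9.43 ± 0.02 and 7.37 ± 0.28 (SD, n = 2) after stimulation. The remaining probe, at 1778 bp, was measured in both channels in every replicate. Its log2 ratios were 0.28 and 0.64 in unstimulated cells and 3.88 and 3.59 after TGFβ1, a change of 3.27 ± 0.20 (SE, limma adjusted p 0.00531). Its SMAD3 IP signal went from 4.25 and 5.01 to 8.74 and 8.76, which do not overlap, and its mock IP signal from 3.40 and 3.69 to 4.29 and 4.35. In 5 of the 9 probes the mock IP did not pass the background flag after stimulation. Runs of 9 or more probes called higher, with gaps of up to 1000 bp, numbered 38 among 36468 runs on the arrays, where the median run was 1 probe long. With the normexp background correction all 9 estimates stayed positive, from 1.42 to 4.34, but 0 of 9 were called by limma (4 of 9 at an unadjusted p under 0.05). Leaving out an unstimulated replicate left 6 of 9 called, for either replicate.

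**Figure D3:**
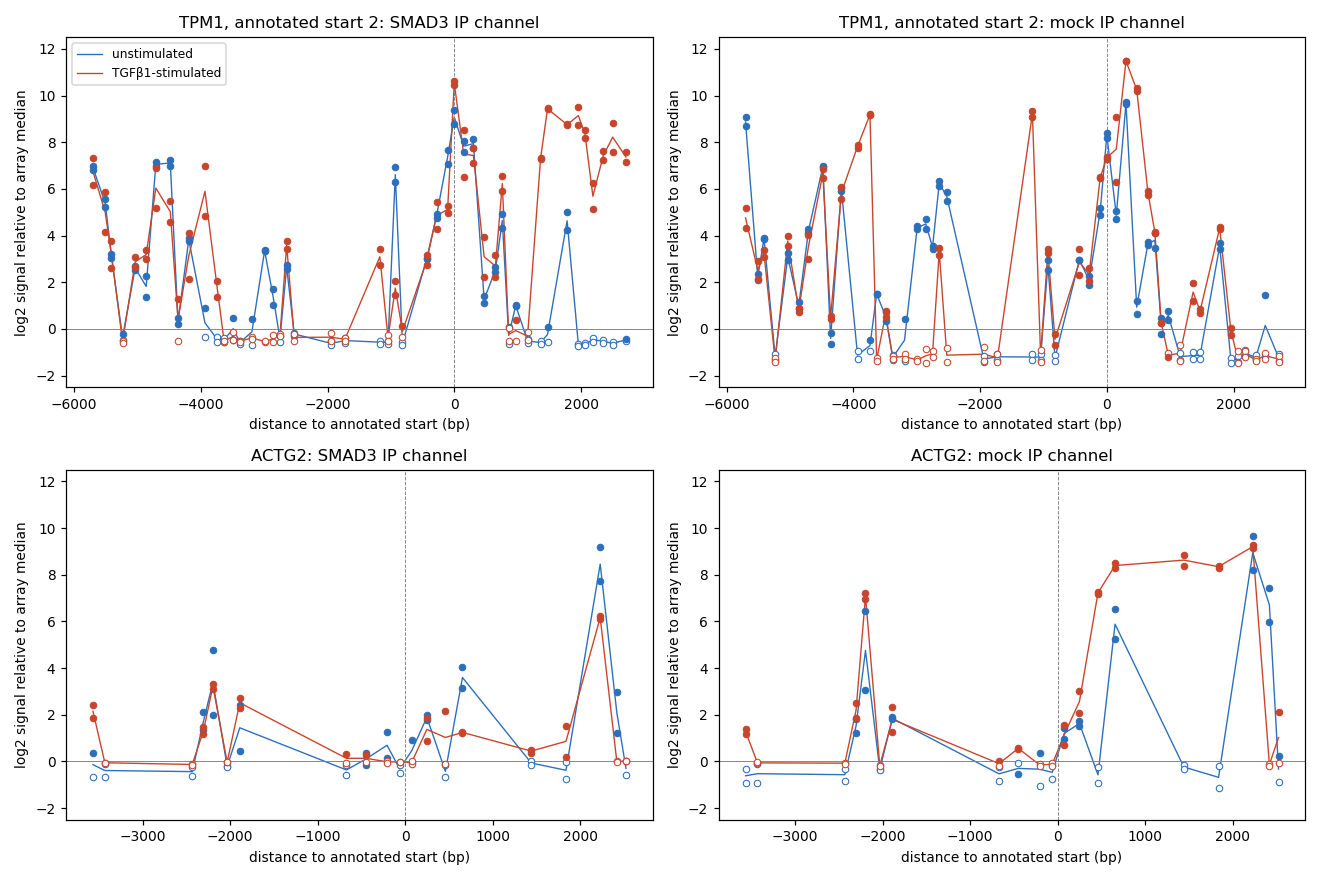
Log2 signal relative to the array median (vertical axis) in the SMAD3 IP channel (left) and the mock IP channel (right) against the distance to the annotated start in bp (horizontal axis), for TPM1 at its downstream start and for ACTG2. Points are replicates, filled where that channel was well above background, and lines join condition means. From 1359 bp of TPM1 onward the SMAD3 IP signal after TGFβ1 lay between 5.13 and 9.53, and from 461 to 1839 bp of ACTG2 the mock IP signal after TGFβ1 lay between 7.18 and 8.86.

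Closer to the same TPM1 start the readings turned the other way. At 469 bp the log2 ratios were -0.12 and -0.48 in unstimulated cells and -8.66 and -7.05 after stimulation, the largest fall among the measured member probes (-7.55 ± 0.66 SE, limma adjusted p 0.00957). The mock IP signal was 0.65 and 1.21 before and 10.31 and 10.19 after stimulation, a difference of 9.32, while the SMAD3 IP signal differed by 1.84. The probes at 147, 300, 469 and 647 bp formed a run of 4 with a lower ratio. Just upstream, the probe at -107 bp went from 1.63 and 1.78 to -2.11 and -2.01, and the one at -2 bp from 0.06 and 0.26 to 2.49 and 2.51 (limma adjusted p 0.00229 and 0.00416). Neighbours at this start changed in opposite directions, with no overlap between conditions at either. At -932 bp, where TPM1 was highest in unstimulated cells, the ratios were 3.20 and 3.28 against -2.53 and -2.02 after stimulation. The upstream start had its own contrast at -88 bp, with -2.55 and -2.26 before and 1.65 and 1.49 after TGFβ1, where the SMAD3 IP signal differed by -0.17 and the mock IP signal by -4.22.

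More than 2000 bp upstream of their annotated start, 14 of 33 TPM1 probes rose, beside 10.5% of all probes on the arrays. Of these, 12 rose from mean ratios between -6.52 and -1.34. The other 2 rose from 0.20 at -4862 bp of the downstream start and 0.00 at -2560 bp of the upstream one. The probes of the downstream start reach no further than -5702 bp from it, and the starts lie 5798 bp apart. Those probes thus lie past the upstream start, inside the gene. Runs of 5 probes from -2994 to -2527 bp of the downstream start and of 4 probes from -4702 to -4279 bp of the upstream start rose, and at 6 of these 9 probes neither channel was well above background after stimulation. Of the 36468 runs of higher probes on the arrays, 524 held 5 or more and 1185 held 4 or more. At -2527 bp the unstimulated ratios were -6.70 and -6.34, and at -4279 bp -5.58 and -5.29. The mock IP signal there was lower after stimulation by at least 111-fold and 886-fold. Each TPM1 probe was also placed by its distance to the annotated start the arrays give for it. Over the 25 probes between 2000 bp before and 800 bp past it, the mean ratio was -0.27 ± 0.02 (SD, n = 2) in unstimulated cells. After stimulation it was -1.71 ± 0.12. Of these 25, the 10 probes of the upstream start averaged -1.18 before and -1.92 after stimulation, and the 15 of the downstream start 0.33 and -1.57. Over the 33 probes further upstream the means were -1.61 ± 0.04 and -0.68 ± 0.01, and over the 12 further downstream -0.15 ± 0.28 and 5.34 ± 0.06. Of the 25, 33 and 12 probes, 16, 11 and 1 were well above background in both channels in every replicate. The probe at -5702 bp of the downstream start, counted among the 33, adjoins the one at -88 bp of the upstream start. These 3 sets of probes did not move together.

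ACTG2, the enteric smooth muscle γ-actin on chromosome 2, showed a run of the opposite kind. The 6 probes in a row, from 249 to 2230 bp inside the gene, had a lower ratio after stimulation. Runs of 6 or more lower probes numbered 294 of 42546 on the arrays, and runs of 4 or more 1445. At 656 bp, measured in every replicate, the ratios were -2.28 and -2.61 and then -7.05 and -7.35 (change -4.75 ± 0.20 SE, limma adjusted p 0.00304). The SMAD3 IP signal of this probe was 3.14 and 4.05 and then 1.23 and 1.26, and its mock IP signal 5.23 and 6.54 and then 8.27 and 8.52, so the channels differed in opposite directions. At 1442 and 1839 bp neither channel was well above background in unstimulated cells, and the stimulated ratios were -7.90 and -8.57, and -6.78 and -8.28. Here the mock IP signal was higher by at least 8.87 and 9.03 on the log2 scale and the SMAD3 IP signal by at least 0.51 and 1.24. The next probe, at 2420 bp, rose from -4.93 and -4.61 to a state with no signal well above background in either channel. Of the 20 ACTG2 probes, 4 lay below 0 in unstimulated (20.0%, beside 17.4% of all probes) and 8 in stimulated cells (40.0%, beside 18.5%). Of the 6 probes, 3 kept their call under normexp and 2 without either unstimulated replicate.

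At the 8 genes 26 probes were named by their place or size, 22 of them called changed. They include the largest rise and fall of each gene, so this number follows from the choice. Of all probes well above background 44.4% were called. Of these 22 calls, 20 were lost under normexp, 12 without either unstimulated replicate, 7 and 8 without stimulated replicate 1 and 2, 3 with the replicate block and 2 with loess, with no change of direction.

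TAGLN, an early smooth muscle marker and a known TGFβ target on chromosome 11, was tiled from -1732 to 5292 bp. Of its 38 probes, 4 changed to a higher and 10 to a lower ratio (36.8%, beside 22.9% of all probes). Among its probes well above background 52.4% were called, beside 44.4% of all such probes. Nearest the start, at 87 bp, the ratios were -0.81 and -0.40 in unstimulated and 0.48 and 0.35 in stimulated cells, a rise of 1.02 ± 0.19 (SE, limma adjusted p 0.0498) with no overlap between conditions. This call was lost without any one of the 4 replicates (adjusted p 0.070 to 0.203), with the replicate number as a block (0.11), with loess (0.0581) and with normexp (0.767). The highest reading after TGFβ1 stood at 2004 bp, where 0.27 and 0.25 became 3.26 and 3.61 (3.17 ± 0.17 SE, adjusted p 0.00415). There the SMAD3 IP signal differed by 0.94 and the mock IP signal by -2.30. The highest in unstimulated cells stood at 3692 bp, where 3.05 and 2.98 became -1.48 and -1.60 (-4.55 ± 0.11 SE, adjusted p 0.00203), and here the SMAD3 IP signal differed by -3.37 and the mock IP signal by 1.11. This probe belonged to a run of 4 from 3581 to 3969 bp that all fell. At the distal end, -1732 bp, the ratios after stimulation were -7.46 and -7.13 with a mean mock IP signal of 9.10, against ratios of -1.61 and 0.09 before. Of the 38 TAGLN probes, 7 lay above (18.4%, beside 8.92% of all probes) and 10 below 0 (26.3%, beside 17.4%) in unstimulated cells. After stimulation 3 lay above (7.89%, beside 8.22%) and 16 below (42.1%, beside 18.5%).

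TAGLN2, the more widely expressed homologue on chromosome 1, had the highest unstimulated readings of all 8 genes. At -714 bp the ratios were 4.58 and 4.33 in unstimulated and -0.82 and -0.94 in stimulated cells (-5.34 ± 0.14 SE, limma adjusted p 0.0021), and the SMAD3 IP signal differed by -4.46. At 99 bp they were 4.68 and 3.44 and then -0.53 and -0.81 (-4.73 ± 0.51, adjusted p 0.0149). Both probes stood above 0 in each unstimulated replicate and below it in each stimulated one. The next probe, at 246 bp, went the other way, from -3.67 and -5.51 to 1.81 and 1.77, the largest rise among the measured member probes (6.38 ± 0.74, adjusted p 0.0168), and its mock IP signal differed by -4.28. Replicates differed at this gene: at 348 bp the unstimulated ratios were -0.48 and -6.13, with mock IP signals of 3.53 and 11.41.

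The aortic smooth muscle α-actin gene ACTA2, on chromosome 10 and the usual marker of myofibroblasts, was mostly dark, with 4 of 35 probes measured throughout. One of them, at 772 bp, read -1.29 and -0.30 in unstimulated and 4.86 and 3.80 in stimulated cells, a rise of 5.12 ± 0.58 (SE, limma adjusted p 0.0164). The SMAD3 IP signal differed by 4.95 and the mock IP signal by -0.24. A second probe downstream, at 1381 bp, had no SMAD3 IP signal well above background before stimulation. It was higher in that channel afterwards by at least 3.26 on the log2 scale. The stimulated ratios of 2.53 and 3.68 rest on a mock IP signal that did not pass the background flag (limma adjusted p of the ratio 0.0197). At the 2 probes between them, at 911 and 1107 bp, neither channel was well above background in any replicate. At -269 bp, the highest probe in unstimulated cells, the ratio fell from 1.43 and 1.68 to 0.37 and 0.59 (-1.07 ± 0.16, adjusted p 0.0298). At -28 bp, nearest the start, the values of -0.19 and -2.09 before and -2.72 and -3.37 after did not pass the test (adjusted p 0.254).

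CNN1, on chromosome 19, codes for the calponin that restrains the actomyosin ATPase. It was measured well at 21 of 30 probes, and 17 of the 30 are annotated as a promoter shared with the divergent neighbour ECSIT. At CNN1 5 of the 30 probes rose and 7 fell, or 40.0%, beside 22.9% of all probes. Among its 21 probes well above background 42.9% were called, near the 44.4% of all such probes. Nearest the start, at -71 bp, the ratios turned from -1.89 and -1.62 to 1.48 and 1.91 (3.46 ± 0.22 SE, limma adjusted p 0.00557), with differences of 1.49 in the SMAD3 IP and -2.03 in the mock IP. At 209 bp they turned the opposite way, from 1.57 and 1.77 to -0.49 and -0.74 (-2.28 ± 0.16, adjusted p 0.00639). The probe between them, at 80 bp, stayed below 0 in all 4 replicates, from -0.88 to -1.30. Further into the gene, 1086 bp (from -0.54 and -0.39 to 1.43 and 1.56) and 1208 bp (from 1.60 and 1.61 to -0.30 and -0.34) repeated this alternation. The largest fall among the measured probes was at -3021 bp, from 0.68 and 0.33 to -2.19 and -2.75.

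TPM2, the β-tropomyosin gene on chromosome 9, was measured well at 15 of 23 probes. At TPM2 3 of the 23 rose and 5 fell, or 34.8%, beside 22.9% of all probes. Among its 15 probes well above background 53.3% were called, beside 44.4% of all such probes. The largest fall was at 924 bp, where ratios of 1.87 and 2.09 became -3.46 and -3.81 (-5.62 ± 0.19 SE, limma adjusted p 0.00244) with differences of -2.94 in the SMAD3 IP and 2.79 in the mock IP. The largest rise was at -998 bp, from -0.46 and -0.56 to 2.08 and 1.57 (2.34 ± 0.22, adjusted p 0.0117). At -169 bp TPM2 stayed above 0 in both conditions, with 2.57 and 2.72 before and 1.14 and 0.79 after. Nearest the start, at 58 bp, all 4 values were below 0, from -1.12 to -2.22, and the change missed the threshold (adjusted p 0.093).

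CALD1, on chromosome 7, has 2 annotated starts on the arrays that lie 111988 bp apart, and 59 of its 63 probes were not measured in both channels throughout. Among the 4 probes measured throughout, the one at 203 bp of the upstream start was the highest in both conditions and had the largest rise, from 1.04 and 0.65 to 1.92 and 1.94 (1.09 ± 0.18 SE, limma adjusted p 0.0364). It was above 0 in all 4 replicates and its SMAD3 IP signal differed by 0.81. All 6 CALD1 probes that were called rose. Of these, 4 rose from mean ratios of -2.77, -2.56, -3.58 and -0.67, at -324, 627 and 816 bp of the upstream start and -503 bp of the downstream one. At these 4 the mock IP was no longer well above background after stimulation. The SMAD3 IP did not pass the background flag there after stimulation either, apart from 1 replicate at 816 bp. CALD1 was the gene with the smallest share of probes called, 9.52%, beside 22.9% of all probes.

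Averaging all probes between 2000 bp before and 800 bp past their annotated start gave 1 value per gene and replicate. This was done for 16299 genes with at least 3 probes there. Each probe was placed by the start the arrays give for it, also in genes with 2 starts. In 4 of the 8 genes this promoter mean changed after TGFβ1, beside 47.8% of all genes, which is about the same share (1 rose, beside 20.3%, and 3 fell, beside 27.5%). Without stimulated replicate 1 fewer of the 8 passed, as did fewer of all genes. TPM1 fell from -0.29 and -0.26 to -1.80 and -1.62 (-1.44 ± 0.14 SE, limma adjusted p 7.98e-05). ACTG2 fell from -0.28 and -0.32 to -1.46 and -1.96 (-1.41 ± 0.18, adjusted p 0.000381). TAGLN fell from -0.61 and -0.59 to -1.30 and -1.07 (-0.58 ± 0.14, adjusted p 0.0105), and CALD1 rose from -0.11 and -0.36 to 0.27 and 0.13 (0.43 ± 0.15, adjusted p 0.0423). In each of the 4 the replicates of one condition lay apart from those of the other. This held for 74.9% of all genes.

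These 4 calls differed in how far they depended on the choice of probes. The fall of TPM1 reversed to a rise of 0.87 (limma adjusted p 0.000269) when all 70 probes of the gene were averaged, those further from their annotated start included. TAGLN came to 0.02 over its 5 promoter probes well above background and to 0.30 over probes within 500 bp of the start, neither of them called, and lost its call without stimulated replicate 1 (-0.47, adjusted p 0.0596) and with the median of its probes (-0.08). CALD1, with 2 of 29 promoter probes measured throughout, lost its call in most alternatives, among them without unstimulated replicate 2 (0.31, adjusted p 0.285) and without either stimulated replicate (0.36 and 0.50). ACTG2 was lower under every alternative run and lost its call with the median of the probes alone (-0.48, adjusted p 0.0968).

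The other 4 promoter means did not pass. ACTA2 read -0.25 and -0.21 in unstimulated and 0.27 and -0.09 in stimulated cells (change 0.33 ± 0.16 SE, limma adjusted p 0.128). Here the conditions did not overlap, and the change was called with loess (0.38) and over the 3 probes well above background (0.71). TAGLN2 read -0.10 and -0.89, and then -0.55 and -0.68 (adjusted p 0.719), so the unstimulated replicates enclosed the stimulated ones. CNN1 read -0.62 and -0.66, and then -0.58 and -0.80 (adjusted p 0.792), and TPM2 0.01 and -0.31, and then -0.29 and -0.32 (adjusted p 0.449). Both genes held single probes that changed in either direction. Over all probes of the gene both were called lower (CNN1 -0.32, adjusted p 0.0241, and TPM2 -0.34, adjusted p 0.0289), and TAGLN2 was called lower without unstimulated replicate 2 (-0.52, adjusted p 0.0498).

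**Figure D4:**
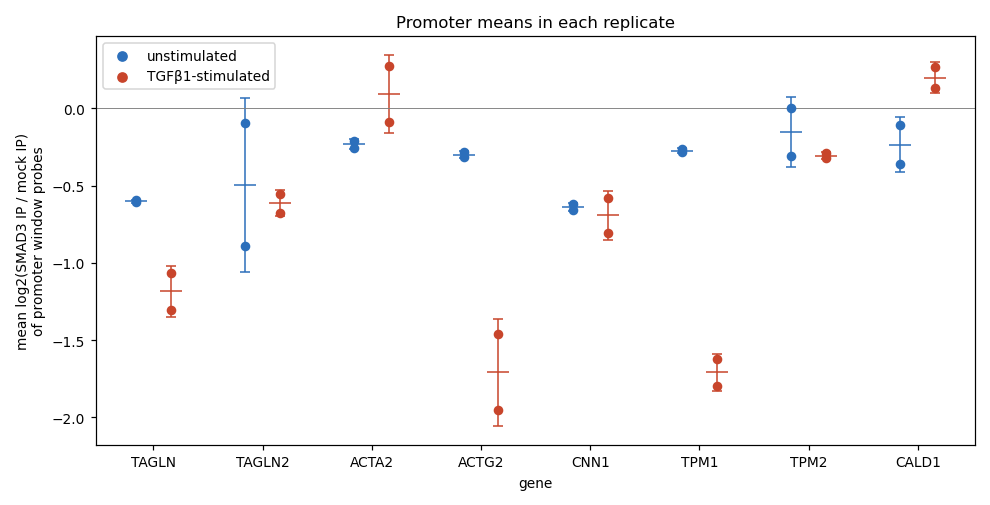
Mean log2 ratio over promoter probes between 2000 bp before and 800 bp past the annotated start (vertical axis) for each of the 8 genes (horizontal axis). Points are replicates, bars the mean and SD of the 2 replicates of a condition. TPM1 and ACTG2 lie lowest after TGFβ1, with means of -1.71 in both.

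With median centring, in neither condition was a promoter mean of the 8 genes above 0 by limma, at an adjusted or an unadjusted p under 0.05, beside 20.7% of all genes called above 0 in unstimulated and 16.5% in stimulated cells. Below 0 were 4 genes in unstimulated cells (TAGLN, TAGLN2, CNN1 and TPM1), beside 38.1% of all genes. After stimulation there were 6 (the same 4 with ACTG2 and TPM2), beside 42.5%. Without unstimulated replicate 2 fewer of the 8 were called below 0 in unstimulated cells, as were fewer of all genes. The TPM1 value pools its 2 starts, which read -1.18 (upstream) and 0.33 (downstream) in unstimulated cells and -1.92 and -1.57 after stimulation. Of the 6 genes after stimulation, TAGLN2 and TPM2 lost their call without either stimulated replicate. Their values there stayed below 0 (-0.68 and -0.55 for TAGLN2, -0.32 and -0.29 for TPM2, without replicate 1 and 2). The signs of the promoter means depended on the scaling. Loess moved the median of all promoter means from -0.12 to 0.15 (unstimulated) and from -0.18 to 0.16 (stimulated), and all genes from 3371 above and 6218 below 0 to 6812 and 3400, and from 2692 and 6931 to 6993 and 3372. Of the 8, no gene was then called in unstimulated cells, where TPM1 came nearest (0.20, limma adjusted p 0.0773), and after stimulation ACTA2 (0.32) and CALD1 (0.32) were above 0 and TAGLN, ACTG2 and TPM1 below. Over probes well above background ACTA2 (0.59) was above 0 after stimulation. Over probes within 500 bp of the start it was called below 0 in both conditions (-0.39 unstimulated and -0.37 stimulated). The sign of ACTA2 thus depended on the probes taken as well. By level in unstimulated cells the order ran from TPM2 (-0.15 ± 0.22, SD, n = 2) over ACTA2 (-0.23 ± 0.03), CALD1 (-0.23 ± 0.18), TPM1 (-0.27 ± 0.02), ACTG2 (-0.30 ± 0.02), TAGLN2 (-0.49 ± 0.56) and TAGLN (-0.60 ± 0.01) to CNN1 (-0.64 ± 0.03). Neighbours in this order differed by less than 1 SD of the wider of the pair, apart from TPM1 and ACTG2, and TAGLN and CNN1. After TGFβ1 CALD1 (0.20 ± 0.10) and ACTA2 (0.09 ± 0.25) were the highest, and TPM1 and ACTG2 (both -1.71) the lowest.

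The change of a ratio can come from either channel, so the promoter means of both were fitted apart. The SMAD3 IP channel passed in 0 of 8 genes (limma, also 0 at an unadjusted p under 0.05), beside 2.55% of all genes. The mock IP channel passed in 1, TPM1, beside 13.9% of all genes. For TPM1 the mock IP mean went from 2.70 and 2.73 to 4.14 and 4.43 (1.57 ± 0.20 SE, adjusted p 0.0213) and the SMAD3 IP mean from 2.98 and 3.15 to 2.92 and 3.62 (0.21 ± 0.34, adjusted p 0.832). For ACTG2 the mock IP went from 0.62 and 1.24 to 2.32 and 2.42 (1.44 ± 0.28, adjusted p 0.0505) and the SMAD3 IP differed by -0.08 ± 0.31 (adjusted p 0.929). For TAGLN the mock IP differed by 0.55 ± 0.22 and the SMAD3 IP by 0.03 ± 0.36 (adjusted p 0.213 and 0.976). The call of TPM1 in the mock IP channel was lost without either stimulated replicate, where limma called no gene of all 16299 (2617 and 2704 at an unadjusted p under 0.05), and with the replicate number as a block (adjusted p 0.0609). It was also lost over probes within 500 bp of the start (1.05) and over probes well above background (0.63), and turned to -0.25 over all probes of the gene. In these 3 genes the fall of the ratio went with a mock IP difference larger than the SMAD3 IP one.

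**Figure D5:**
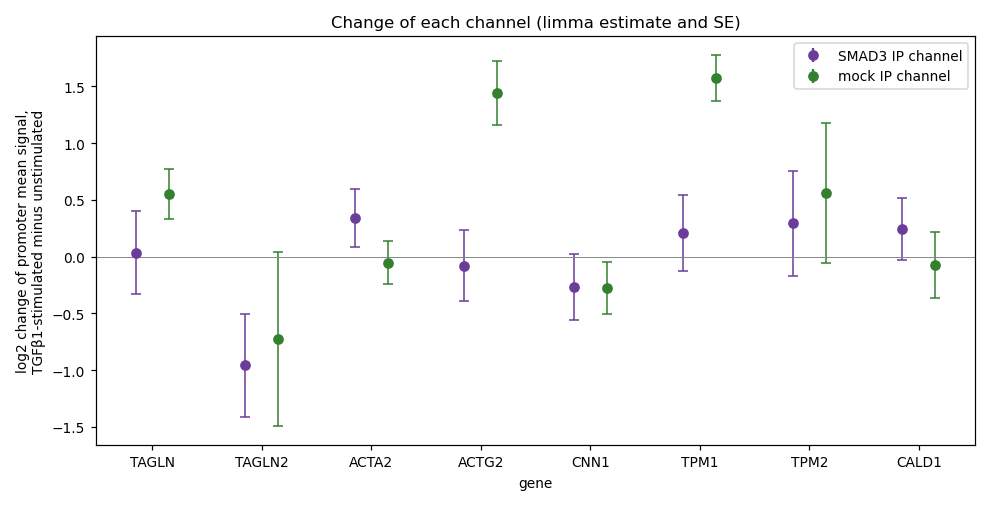
Change of the promoter mean signal after TGFβ1, stimulated minus unstimulated on the log2 scale (vertical axis), in the SMAD3 IP and the mock IP channel of each gene (horizontal axis). Points are limma estimates with their SE, and the mock IP points of TPM1 (1.57) and ACTG2 (1.44) lie highest.

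Neighbouring member probes often differed. The median spacing of the member probes was 169 bp. Of 47 pairs of adjacent member probes within 200 bp, both well above background, 25 changed in opposite directions (53.2%), and the change correlated at r = 0.06 across pairs. Over all arrays the figures for such pairs 100 to 200 bp apart were 44.7% and r = 0.34, with 66371 pairs. These are descriptions over probes that share arrays and, in part, fragments.

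Among 35 further symbols of contractile and actin cytoskeleton genes, 31 had a promoter mean. Of these 9 fell and 5 rose, or 45.2%, beside the 47.8% of all genes, and their median change was -0.17, beside -0.06 over all genes and -0.14 over the 8. FLNA, the actin cross-linker filamin A, stood highest, from -0.03 and -0.24 to 2.84 and 2.47 (2.79 ± 0.17 SE, limma adjusted p 7.18e-06). This change was 0.41 over all probes of the gene and 0.81 over probes well above background, both called higher. Under normexp it was 2.07 and not called, and with the median of the probes it turned to -0.57 (limma adjusted p 0.0360). The other alternatives kept it between 2.60 and 3.04. Its SMAD3 IP mean rose by 3.86 (limma adjusted p 0.00799), the only such call among the 31. That call was lost over all probes of the gene and over probes well above background. It was also lost under normexp and without any one of the 4 replicates, where no gene passed in this channel, so these losses are not particular to FLNA. MYL6, a myosin light chain, stood lowest, from -0.55 and -0.09 to -2.82 and -2.66 (-2.42 ± 0.18), where the mock IP mean rose by 2.52 (adjusted p 0.0106, but 0.200 without either stimulated replicate) and the SMAD3 IP differed by 0.17. The 3 genes outside the 8 with replicate values most like those of TAGLN, by Euclidean distance over the 4 replicate promoter means, were PRKD2 (0.06), WDR45L (0.10) and CTCFL (0.11).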

How the data were processed

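Per the labels, chromatin from A549 cells was immunoprecipitated with anti-SMAD3 or control anti-flag antibody, amplified by linker-mediated PCR, labelled and hybridized to Agilent promoter arrays. The authors deposited scanner output (Feature Extraction 9.5.1.1) with processed intensity values per channel, already background-subtracted and dye-normalized, and a value table of log2 ratios, which matched the log2 of the processed ratio to within 3.13e-06. Amplification and dye normalization can change relative signals. Here the log2 ratios of the processed signals (red over green) were centred on the median of each array, without loess. Control spots and 1404 probes with an outlier flag were left out. Linear models were fitted in limma 3.58.1 (R 4.3.3) across all probes and across the promoter means, with Benjamini-Hochberg adjustment at 0.05. Promoter means were taken for 16299 genes with at least 3 probes from 2000 bp upstream to 800 bp downstream of their annotated start. Channel signals were fitted separately. Signal differences given with "at least" are bounds for signals not well above background. Where the dim signal lay above the lowest passing one, they equal the plain difference and are not guaranteed minima. The ratios, the limma fits and the means took the scanner's processed value of such signals as it stood. Alternatives were normexp (offset 50), loess, probe filters, windows, the median, a replicate block, separate slides and leaving out each replicate. In data simulated from these samples, 83.0% of 200 genes with known changes of 2 on the log2 scale were recovered at 2.92% false calls. Of single probes with such a change, 0% were recovered when 200 of the 473007 probes changed and 74.5% at 5.20% false calls when 100000 did, so single-probe calls depend on how many probes change.

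Replicate numbers are names given by the labels, and nothing ties same-numbered samples across conditions. The members and gene lists were chosen with earlier results of these data known. The probes named were, for each gene, the nearest to the start, the highest in each condition and those with the largest rise and fall among probes well above background, plus neighbours and runs picked after their values were seen. P-values measure the spread of 2 replicates per condition, and this number limits the precision. The paper's binding model was not used here.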

Additional observations from a re-analysis of the deposited data

How the results depend on the processing

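With normexp background correction, the changed probes went from 108460 to 21460 and the probes off 0 from 124729 to 7298 (unstimulated) and from 126264 to 31532 (stimulated). The promoter means went from 7783 to 1672 for the change, 9589 to 753 and 9623 to 3665, and in the SMAD3 IP and mock IP channels limma then called 0 genes each (298 and 1043 at an unadjusted p under 0.05). Probes of the 8 genes went from 102 to 12, from 96 to 1 and from 103 to 26, and genes of the 8 off 0 from 4 to 0 (unstimulated) and from 6 to 3. With the median of the probes the gene counts were 1787, 2544 and 2846, with 1 of the 8 changed and 2 off 0 in unstimulated cells. Within 500 bp of the start 2 of the 8 changed. Loess left 0 of the 8 off 0 in unstimulated cells, and all probes of the gene gave 7. Over probes well above background 63 member probes changed and 870 genes passed in the mock IP. The SMAD3 IP count of 416 became 208 over all probes and 1176 with separate fits per slide, where the mock IP count of 2270 became 4767.

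Leaving out each replicate gave 42874 to 68794 changed probes, 57813 to 106654 (unstimulated) and 80685 to 91012 (stimulated) probes off 0, 50 to 71, 44 to 86 and 58 to 74 of the member probes, 2 to 4 of the 8 genes changed and 2 to 4 off 0 in unstimulated cells. The SMAD3 IP channel then gave 0 to 0 genes (1207 to 6142 at an unadjusted p under 0.05) and the mock IP channel 0 to 10013.

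With the replicate number as a block, 768 and 971 genes passed in the SMAD3 IP and mock IP channels, and 88 member probes and 4 of the 8 genes changed. Same-numbered samples share only a number: their deviations correlated at r = 0.02 over probes and 0.11 over genes, with 2 pairs.

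Signs turned as follows. Over all probes, TAGLN2 was 0.19, TPM1 0.87, TAGLN in the SMAD3 IP -0.012 and TPM1 in the mock IP -0.25. Loess gave TAGLN2 0.024, CNN1 0.074 and TPM2 0.037. The median gave CNN1 0.58, TPM2 0.10 and TAGLN in the SMAD3 IP -0.19. Normexp gave TAGLN2 0.26, CNN1 0.022, TPM2 0.086 and ACTG2 in the SMAD3 IP 0.0029. Over probes well above background, TAGLN was 0.020, in the SMAD3 IP -0.36 and in the mock IP -0.45, and TPM1 in the SMAD3 IP -0.29. Within 500 bp, TAGLN was 0.30, TAGLN2 0.067, CNN1 0.33, TPM2 0.012, TAGLN -0.078 and -0.45 in the SMAD3 IP and mock IP, and ACTG2 and TPM1 in the SMAD3 IP 0.0090 and -0.19. Leaving out each replicate gave -0.52 to 0.28 for TAGLN2, -0.16 to 0.057 for CNN1 and -0.31 to 0.0052 for TPM2, and in the SMAD3 IP -0.38 to 0.44 for TAGLN, -0.34 to 0.18 for ACTG2 and -0.15 to 0.56 for TPM1. The cause was not tested.

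Among single genes and probes, 302 of 429 alternative values kept their direction and side of the threshold, also where nothing was called. The direction was kept but the call lost in 82, while 34 reversed and 11 became stronger. Some of the 302 could hardly differ. The deposited ratios were the same values (26 probe and 8 gene values), and the 26 named probes had been chosen as well above background. Probes below the background flag carry no fully measured ratio, and 2 replicates limit the precision.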
